A study of Mus musculus with 13 samples.

Results

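Cardiomyocytes, the beating muscle cells of the heart, were compared between the mouse stages E10.5 and E12.5, named by days of embryonic development, in 10x Genomics single-cell RNA-seq libraries. A cell barcode counted as a cardiomyocyte when it held at least 2000 unique molecular identifiers (UMIs, 1 per captured RNA molecule) and 500 genes, at least 1% of its UMIs from mitochondrial (mt-) genes, at least 1000 CPM of Tnnt2 and at least 500 CPM of Actc1, where CPM is a gene's UMI count per 1000000 UMIs. Tnnt2 encodes cardiac troponin T and Actc1 cardiac alpha-actin, both thin-filament proteins. The rule found 148 and 152 barcodes in the 2 E10.5 libraries and 1778 and 2412 in the 2 E12.5 libraries, which is 4490 of the 40812 barcodes of these libraries that reached the UMI and gene floors, and of 76191 such barcodes in all stages. All libraries came from wild-type C57Bl/6J mice, with 2 libraries per stage that the series record calls biological replicates, although the titles give both libraries of a stage the same replicate number. The E10.5 libraries were made from embryos without head and limbs and the E12.5 libraries from dissected hearts, both after trypsin digestion per the labels, whereas the study's methods name collagenase II. The labels give neither sex nor the number of animals in a library. Stage, dissection and the make-up of each suspension therefore change together and cannot be told apart, and the p-values below measure only the spread between these 2 libraries per stage.

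Between these stages the looped heart tube becomes a chambered heart. Its muscle cells go on dividing while they assemble sarcomeres, the repeating units in which myosin (thick) filaments slide along actin (thin) filaments anchored at the Z-disc, and while calcium release from the sarcoplasmic reticulum, electrical coupling and mitochondrial respiration mature. Ventricular muscle comes to be marked by the regulatory myosin light chain Myl2, whereas Myl7 is the atrial form and is found throughout the early tube.

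The values the rule used are given first, as a description. The median member held 14849.5 and 14032.5 UMIs in the E10.5 libraries and 25386 and 23960 in the E12.5 libraries, from 3232, 3176, 4279.5 and 4215.5 genes. Median Tnnt2 was 1770 and 1796 CPM at E10.5 against 3357 and 3088 at E12.5, median Actc1 was 4120 and 4820 against 11118 and 10887, and the median mt- share was 4.39% and 4.02% against 6.52% and 6.91%. Between 1000 and 2000 CPM of Tnnt2, near the floor, lay 92 of 148 and 89 of 152 members at E10.5 and 186 of 1778 and 346 of 2412 at E12.5. Of the 20 members just inside the Tnnt2 floor, 18 and 14 at E10.5 and 15 and 16 at E12.5 had at least 1000 CPM of Myl7, and of the 20 barcodes just outside it 15 and 10, and 10 and 16. Members were 1.01% and 1.06% of the barcodes that passed the UMI and gene floors in the embryo libraries and 34.8% and 35.7% in the heart libraries. The mt- floor left out 17 and 16 barcodes at E10.5 that otherwise met the rule, and 883 and 1178 at E12.5.

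Of 12 cardiomyocyte markers, among them the rule genes Tnnt2 and Actc1, all 12 had UMIs in each of the 4 sums of members. Sums of this size also held UMIs of all 7 neural markers at E10.5 and all 8 endothelial markers at E12.5. Detection alone therefore does not check the label. The members of the E10.5 libraries also held barcodes with skeletal muscle genes. The summed level of 10 skeletal muscle markers was 432 and 496 CPM at E10.5, with 9 and 10 of them detected, against 0.637 and 0.661 CPM at E12.5, with 6 and 5 detected. Among the E10.5 members 16 and 17 (10.8% and 11.2%) had less than 1000 CPM of Myl7 or a UMI of Myog, Myod1, Myf5, Myf6, Chrna1 or Mymk (listed as Tmem8c), genes of skeletal muscle specification, fusion and innervation. Their pooled UMIs held 932 and 781 CPM of Myog, 35.7 and 388 CPM of Myl7, and no UMI of the cardiac factors Nkx2-5 and Gata4, while the members kept held 12741 and 14409 CPM of Myl7 and 410 and 453 CPM of Nkx2-5. The same filter met 90 and 105 members at E12.5 (5.06% and 4.35%), mostly for low Myl7, and these held 231 and 231 CPM of Nkx2-5, 61.0 and 71.1 CPM of Gata4 and 5.08 and 5.43 CPM of Myog, so by these genes they were not like those of E10.5. In what follows, all members that met this filter, at either stage, are called low-Myl7 or myogenic barcodes, and leaving them out also takes low-Myl7 members with cardiac genes from the E12.5 sums. The test over all genes and the counts of the lists were also run without them, but the counts past a doubling or halving, the shares of members with a UMI and the comparison with endothelial-like barcodes were not.

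Markers of other classes were read in the members too. Neural markers summed to 122 and 119 CPM at E10.5 and 37.6 and 36.3 CPM at E12.5, paraxial mesoderm markers to 17.0 and 20.4 against 6.04 and 4.76 CPM, while fibroblast and mesenchyme markers, at 93.4 and 52.2 against 68.1 and 72.3 CPM, overlapped between stages. Erythroid markers were higher at E12.5, with 519 and 541 against 3165 and 5575 CPM, as did macrophage markers, with 6.61 and 2.21 against 41.6 and 41.3 CPM, and smooth muscle markers, with 170 and 186 against 288 and 285 CPM. At E12.5 a single gene carried each of the last 2 sums: Lyz2 stood at 4.96 and 0.885 against 39.7 and 40.4 CPM, with C1qa, C1qb, Csf1r and Tyrobp at most 0.443 CPM in any sum, and Cnn1 at 155 and 161 against 282 and 279.9 CPM, while Rgs5 was at 10.7 and 23.5 against 3.82 and 2.90 CPM and Pdgfrb at 3.31 and 1.77 against 1.98 and 1.83 CPM. Endothelial markers summed to 59.5 and 55.8 against 60.5 and 56.4 CPM, epicardial markers to 64.1 and 91.2 against 61.9 and 55.7 CPM, neural crest markers to 4.96 and 6.20 against 5.91 and 6.52 CPM, and endoderm and hepatic markers to 5.37 and 1.77 against 2.50 and 2.24 CPM. Free RNA, read from barcodes with 1 to 50 UMIs, carried 447 and 461 CPM of cardiomyocyte markers at E10.5 and 22580 and 22420 CPM at E12.5. Among them, Tnnt2 in free RNA was 24.2 and 26.9 CPM at E10.5 and 2433 and 2285 CPM at E12.5. Actc1 was 88.2 and 86.3 CPM against 6605 and 6957 CPM. Free RNA alone thus exceeded the rule's floors for both genes at E12.5 and lay below them at E10.5. The gene floors were therefore not equally strict at both stages, and how many members free RNA brought in was not tested. The part of the markers of this paragraph in any single result was not tested directly. The only checks were the fits without low-Myl7 or myogenic barcodes, without members holding genes of other classes and with free RNA subtracted. The E12.5 libraries shared 6 member barcodes with each other, where draws at random from the barcode list would share 5.82, and E10.5 library 1 and E12.5 library 2 shared 2, where such draws would share 0.484.

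Of 13364 genes with enough UMIs to be tested, 2596 (19.4%) were higher at E12.5 and 2494 (18.7%) were lower by edgeR's quasi-likelihood test at a Benjamini-Hochberg adjusted p below 0.05. At least a doubling or halving was called for 1085 (8.12%) and 1079 (8.07%) of them. The median log2 difference over all genes tested was 0.02, a value that the scaling sets near 0. Without the low-Myl7 or myogenic barcodes the test called 2536 genes higher (18.9% of 13401) and 2179 lower (16.3%), among them 2362 of the 2596 and 2075 of the 2494. At higher floors, 3000 CPM of Tnnt2 and 1500 CPM of Actc1, 5.51% of 12103 genes were called higher and 4.14% lower. Counts of the lists below at these floors stand against those shares. Below, a gene is said to have risen or fallen only when it passed this test, levels are CPM of the summed members in library 1 and then library 2 of each stage, and differences are log2 of E12.5 over E10.5 ± the standard error (SE) of the fit over the 4 libraries. CPM are counts of 3' ends and were not divided by transcript length, so levels are compared between stages and not between genes.

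Of the 12 largest rises at a level of 50 CPM or more, 1 was a sarcomere gene, Myl2. Gtsf1, a gene of the piRNA pathway of germ cells, was read at 3.72 and 0.443 CPM at E10.5 and 172 and 211 CPM at E12.5, a log2 difference of 6.54 ± 0.27. The E10.5 values of Gtsf1 rest on 9 and 1 UMIs. Gsn, the actin-severing protein gelsolin, rose from 5.79 and 3.98 to 73.9 and 77.6 CPM (4.0028 ± 0.21). Mb, the oxygen-binding protein myoglobin, stood at 13.6 and 12.8 CPM at E10.5 and 183 and 159 CPM at E12.5 (3.75 ± 0.17), so that even the lower E12.5 library was far above both E10.5 libraries. Cited1, a transcriptional co-activator, was read at 88.1 and 77.5 CPM at E10.5 and 964 and 823 CPM at E12.5 (3.49 ± 0.14). The other 8 were Egr1, an immediate early transcription factor (3.72), the secreted chaperone Clu (3.43), the adhesion molecule Mcam (3.40), the vesicle-coat protein Snap91 (3.13), the mitochondrial aldehyde dehydrogenase Aldh1b1 (3.05), the muscle and neuron form of translation elongation factor Eef1a2 (2.85), Mlf1 (2.70) and Myl2 (2.67). In each of these genes both E12.5 libraries lay above both E10.5 libraries, which the rule for naming them required.

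The largest falls were led by skeletal muscle genes. Fast skeletal troponin C, Tnnc2, went from 657 and 706 UMIs to 5 in each E12.5 library (-11.43), the muscle regulator Myog from 183 and 179 to 10 and 10 UMIs (-8.55), and the fast skeletal myosin light chain Mylpf from 634 and 625 to 29.0 and 29.2 CPM (-4.38). Without low-Myl7 or myogenic barcodes the differences of Tnnc2 and Mylpf were -3.66 and -1.46, the first on 3 and 3 UMIs at E10.5 and 5 and 5 at E12.5, and Myog had too few UMIs to be tested. The secreted cytokine gene Il17b went from -5.78 to -2.38, and to -0.41 without the members that held genes of other cell classes. Other large falls lost less. Cck, which encodes the peptide cholecystokinin, was read at 97.6 and 97.4 CPM at E10.5 and 1.62 and 0.695 CPM at E12.5, a log2 difference of -6.39 ± 0.20 and of -6.27 without low-Myl7 or myogenic barcodes. Wnt2, a ligand made by the inflow part of the heart, stood at 64.1 and 60.6 CPM at E10.5 and 3.84 and 4.26 CPM at E12.5 (-3.88 ± 0.14; -3.9954 without those barcodes and -1.75 in members under 1000 CPM of Myl2). Dlk1, an imprinted membrane protein of growing tissues, fell by 3.62 on the log2 scale, Prtg, a membrane protein of the early embryo, by 2.82, Hmga1, a chromatin architectural protein, by 2.72, the tubulin-binding Tppp3 by 2.89 and Shisa2 by 2.70. Without low-Myl7 or myogenic barcodes Tppp3 stood at -2.12 and Shisa2 at -1.91. Xist is described with the sex-linked genes.

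**Figure D1:**
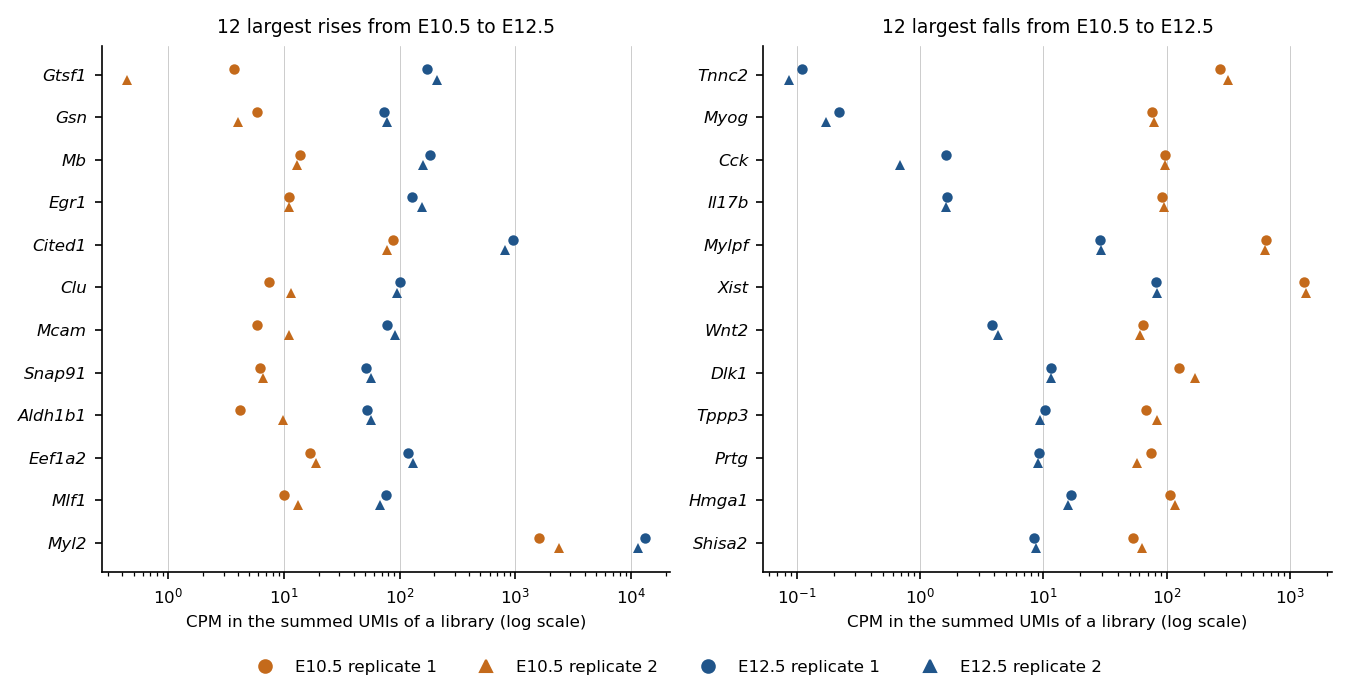
CPM of the summed members on a log axis for the 12 largest rises (left) and the 12 largest falls (right), E10.5 in orange and E12.5 in blue, library 1 as circles and library 2 as triangles. The stages lie apart for every gene, and the libraries of a stage lie furthest apart for Gtsf1 at E10.5, at 3.72 and 0.44 CPM.

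Of 14 thick filament genes 12 were tested, 8 rose and 2 fell, where 19.4% of all genes were higher and 18.7% lower, and the median difference was 0.52. At higher floors for Tnnt2 and Actc1, where 15 and 26 members were left at E10.5, 5 were higher and 2 lower with a median of 0.14. Myl2 was read at 1608 and 2404 CPM at E10.5 and 13145 and 11480 CPM at E12.5 (log2 2.67 ± 0.15, edgeR adjusted p = 4.04e-13). The slow, embryonic ventricular myosin heavy chain Myh7 stood at 495 and 667 CPM at E10.5 and 2694 and 2816 CPM at E12.5 (2.3011 ± 0.13, edgeR adjusted p = 4.64e-13). The E10.5 libraries differed from each other more than the E12.5 libraries did. The stages did not overlap, but genes were named for the size or adjusted p of their difference, so this adds no support. The essential light chain Myl3 rose by 1.70 ± 0.12, myosin-binding protein C, Mybpc3, by 1.82 ± 0.12 and the alpha heavy chain Myh6 by 0.78 ± 0.11, the last from 413 and 338 to 629.6 and 610 CPM. The 2 that fell were light chains, the atrial and early Myl7 and also Myl1. Myl7 was read at 11711 and 12987 CPM at E10.5 and 7766 and 6819 CPM at E12.5 (-0.70 ± 0.11) and Myl1 at 1009 and 877 CPM at E10.5 and 574 and 477 CPM at E12.5 (-0.78 ± 0.12). The atrial light chain Myl4 rose by 0.50 ± 0.11.

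Shares of members with a UMI showed the same order after every member was thinned to 2000 UMIs, which removes the difference in depth. Myl2 was found in 41.9% and 53.9% of members at E10.5 (exact 95% binomial intervals 33.8 to 50.3% and 45.7 to 62.1%) and in 93.3% and 92.9% at E12.5. Without thinning the shares were 58.8% and 64.5% against 100% and 99.6%. In endothelial-like barcodes, which should not make this protein, 0.797% and 1.02% held a thinned Myl2 UMI at E10.5 and 51.7% and 50.04% at E12.5, and the member shares at E12.5 lay above that background. Myh7 was found in 39.2% and 44.7% of members at E10.5 and 84.4% and 87.6% at E12.5, against 0.399% and 0.341%, and 5.75% and 7.98%, of endothelial-like barcodes. Mb went from 2.03% and 5.26% to 24.97% and 22.0%, with at most 1.19% of endothelial-like barcodes in any library. The intervals cover counting error only.

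Thin filament genes were split. All 18 were tested, 9 rose and 8 fell, with a median difference of 0.22, against 19.4% and 18.7% of all genes. At higher floors for Tnnt2 and Actc1 2 were higher and 6 lower (median -0.07), against 5.51% and 4.14% of all genes. The cardiac inhibitory troponin Tnni3 stood at 796 and 805 CPM at E10.5 and 1949 and 1705 CPM at E12.5 (1.25 ± 0.11), the fetal form Tnni1 rose by 0.66 ± 0.11, cardiac troponin C, Tnnc1, by 0.65 ± 0.11 and slow troponin T, Tnnt1, by 1.62 ± 0.12, or 2.32 without low-Myl7 or myogenic barcodes. The genes that fell included the smooth muscle actin Acta2, at 1974 and 2071 CPM at E10.5 and 1159 and 1171 CPM at E12.5 (-0.74 ± 0.11), the actin-binding Tagln (-0.65), the tropomyosin Tpm4 (-1.42) and the leiomodin Lmod1, at 27.7 and 30.1 CPM at E10.5 and 2.90 and 2.52 CPM at E12.5 (-3.36 ± 0.19). Acta2, Tagln and Lmod1 are best known from smooth muscle. Other falls moved with the low-Myl7 or myogenic barcodes: Tnnt3 changed from -1.74 to 0.02, Tpm2 from -1.66 to -0.15 and skeletal actin Acta1 from -1.08 to -0.42 when they were left out, and 6 genes of the list then fell. Tnnt2 and Actc1 are rule genes, and their levels in the sums, 1948 and 2085 CPM at E10.5 and 3613 and 3413 CPM at E12.5 for Tnnt2, are a description only.

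All 31 Z-disc, M-band and titin genes were tested, 19 rose and 2 fell, with a median difference of 0.66. Over all genes 19.4% were higher and 18.7% lower. Alpha-actinin, Actn2, the protein that cross-links actin at the Z-disc, was read at 110.4 and 128 CPM at E10.5 and 526 and 571 CPM at E12.5 (2.26 ± 0.12, edgeR adjusted p = 2.29e-13). The calcineurin-binding Myoz2 stood at 41.8 and 39.8 CPM at E10.5 and 215 and 214 CPM at E12.5 (2.45 ± 0.13), titin-cap Tcap at 83.9 and 98.3 CPM at E10.5 and 230.4 and 208 CPM at E12.5 (1.33 ± 0.13) and titin itself, Ttn, at 1102 and 1079.7 CPM at E10.5 and 1767 and 1783 CPM at E12.5 (0.76 ± 0.11). Filamin Flnc (1.21), the M-band protein Myom1 (1.30), muscle LIM protein Csrp3 (0.94) and desmin Des (0.61) rose as well. The 2 that fell, nebulin Neb (-4.53) and myotilin Myot (-5.70), are best known from skeletal muscle. Without low-Myl7 or myogenic barcodes Neb stood at 0.20 and was not called, Myot was not tested, and 18 genes of the list rose and none fell.

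Promoters of the thick filament and Z-disc lists were searched for 4 short motifs known from heart and mitochondrial genes. RefSeq sequence of GRCm38.p6, the assembly that mm10 denotes, was read 250 bases upstream of each start site on both strands for the M-CAT core CATTCC, the MEF2 site, the CArG box of serum response factor and the NRF1 core GCATGCGC. A gene with several promoter entries counted when any of them held the motif, and 9 of the 31 Z-disc genes had no entry. M-CAT cores were found in 7 of 12 thick filament genes (58.3%) and 7 of 22 Z-disc genes (31.8%), against 14.4% of all 27025 genes with an entry. MEF2 sites were found in 1 and 4 of them (8.33% and 18.2%) against 0.592%, CArG boxes in 2 and 3 (16.7% and 13.6%) against 1.62%, and NRF1 cores in none against 2.56%. A match is a run of letters and not a measured binding site. The windows below hold a MEF2 site in Mybpc3, a CArG box in Myl3 and an M-CAT core, on the other strand, in Myh7, each in capitals and starting 90, 85 and 201 bases before the start site. They are shown because these genes were among the clearest rises of the thick filament.
Mybpc3, chr2:91118009-91118108, + strand: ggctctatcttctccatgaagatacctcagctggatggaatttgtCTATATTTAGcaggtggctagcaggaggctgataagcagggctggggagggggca
Myl3, chr9:110763548-110763647, + strand: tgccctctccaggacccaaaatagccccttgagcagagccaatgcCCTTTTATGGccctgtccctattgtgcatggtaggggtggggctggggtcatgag
Myh7, chr14:54994775-54994874, - strand: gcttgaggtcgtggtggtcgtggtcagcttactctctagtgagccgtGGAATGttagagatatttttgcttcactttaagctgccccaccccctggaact

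Of 27 calcium handling genes tested, 10 rose and 5 fell, with a median difference of 0.22. Over all genes 19.4% were higher and 18.7% lower, so the count lower was near that share. At higher floors for Tnnt2 and Actc1 5 were higher and 2 lower (median 0.12), where 5.51% and 4.14% of all genes were called. Phospholamban, Pln, the inhibitor of the sarcoplasmic reticulum calcium pump, was read at 222 and 343 CPM at E10.5 and 983 and 985 CPM at E12.5 (1.86 ± 0.14), whereas the pump itself, Atp2a2, stood at 585 and 509.5 CPM at E10.5 and 646 and 694 CPM at E12.5 (0.35 ± 0.11). The calcium-storing calsequestrin Casq2 rose by 3.00 ± 0.21, and its anchor triadin, Trdn, by 1.73 ± 0.15. Without low-Myl7 or myogenic barcodes Casq2 was called higher too, on 3 and 0 UMIs at E10.5 against 2034 and 2991 at E12.5, too few for the size of the difference to be read. The release channel Ryr2, at 106 and 116 CPM at E10.5 and 107 and 115 CPM at E12.5, and the exchanger Slc8a1, at 11.6 and 22.6 CPM at E10.5 and 16.1 and 17.1 CPM at E12.5, did not pass the test. The L-type channel subunit Cacna1c rose by 0.62 ± 0.15, and the auxiliary subunit Cacna2d2 fell, from 119 and 106 to 50.047 and 55.1 CPM (-1.04 ± 0.11), but was called higher in members under 1000 CPM of Myl2 (0.76). Sarcolipin, Sln, another inhibitor of the pump, was called lower at -1.40, but without low-Myl7 or myogenic barcodes it was called higher, on 0 and 6 UMIs at E10.5 against 1665 and 1720 at E12.5.

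Ion channels and connexins had 24 of 28 genes tested, 13 of which rose and 3 fell, with a median difference of 0.85. Over all genes 19.4% were higher and 18.7% lower. At higher floors for Tnnt2 and Actc1 9 were higher and 2 lower (median 1.33), where 5.51% and 4.14% of all genes were called. Connexin 43, Gja1, the main gap junction protein of working muscle, was read at 44.6 and 24.3 CPM at E10.5 and 131 and 154 CPM at E12.5 (2.09 ± 0.17). Connexin 40, Gja5, stood at 11.6 and 10.2 CPM at E10.5 and 42.0 and 41.2 CPM at E12.5 (1.99 ± 0.18). The potassium channel genes Kcne1 (2.02), Kcnk3 (1.77) and Kcnh2 (0.58) rose. The pacemaker channel Hcn4 fell by 1.66 on the log2 scale, at 4.55 and 2.66 CPM at E10.5 and 1.05 and 1.15 CPM at E12.5, and the atrial potassium channels Kcna5 (-1.56) and Kcnj5 (-0.39) fell too.

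**Figure D2:**
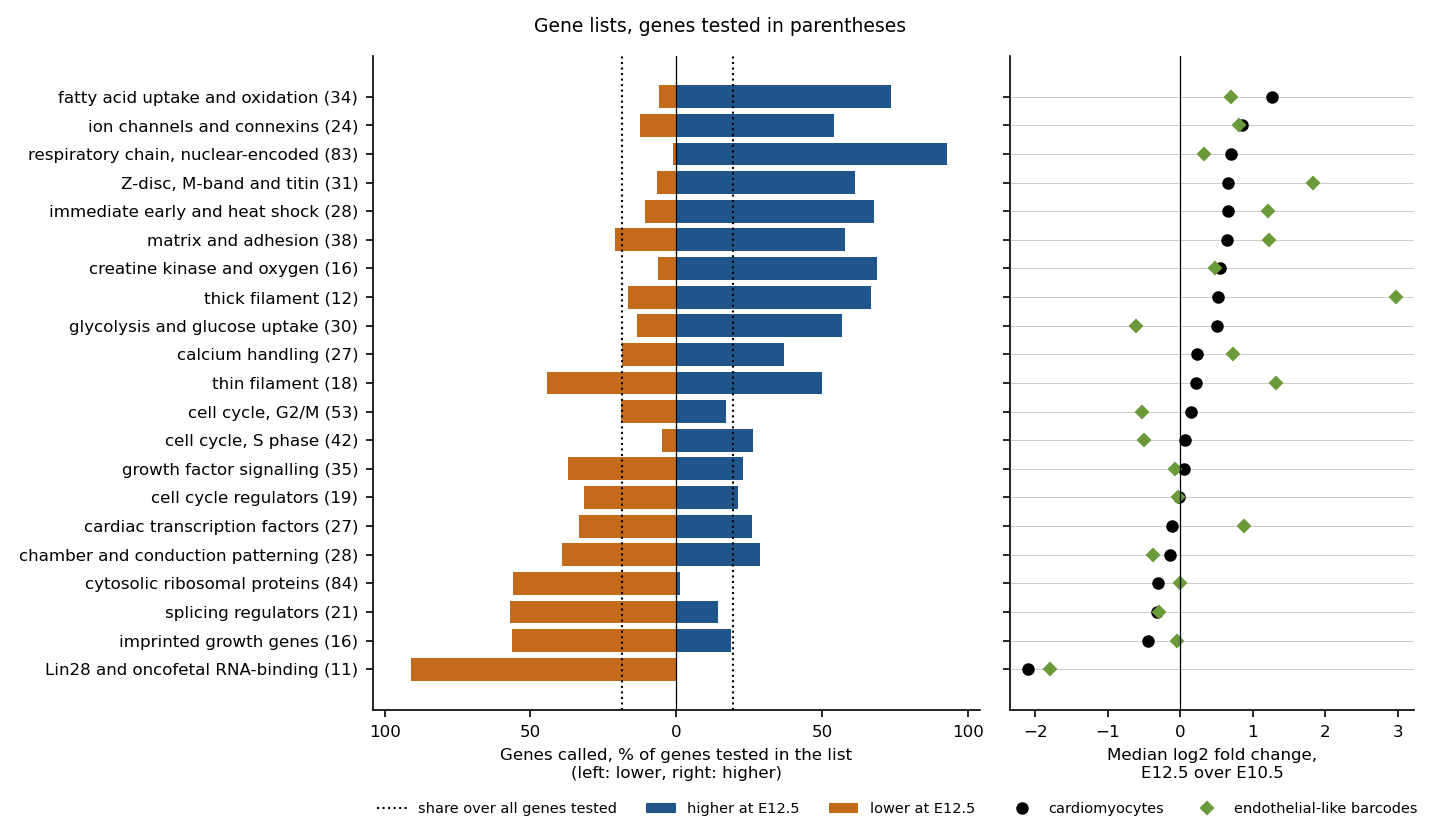
Left, percent of the tested genes of 21 lists called higher (right of 0) or lower (left of 0) at E12.5, with dotted lines at the shares over all genes tested, 19.4% and 18.7%. Right, the median log2 difference of each list in cardiomyocytes (circles) and endothelial-like barcodes (diamonds), from -2.10 for the Lin28 and oncofetal list to 1.26 for the fatty acid list in cardiomyocytes.

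Of all 22 lists the respiratory chain had the largest share of genes higher. Of 83 nuclear-encoded subunits tested, 77 rose and 1 fell, with a median difference of 0.70, against 19.4% and 18.7% of all genes. The core subunit of complex III Uqcrc1 was read at 102 and 104 CPM at E10.5 and 345 and 326 CPM at E12.5 (1.76 ± 0.12, edgeR adjusted p = 1.63e-11), the complex I subunit Ndufv1 at 52.5 and 38.5 CPM at E10.5 and 172 and 168 CPM at E12.5 (1.96 ± 0.14) and the ATP synthase beta subunit Atp5b at 651 and 616 CPM at E10.5 and 1804 and 1813 CPM at E12.5 (1.57 ± 0.11). Uqcrc2 rose by 1.63 ± 0.12. The stages did not overlap for any of the 4, but genes were named for a low adjusted p, so this adds no support. The 1 subunit that fell was Cox4i2, an alternative subunit of complex IV, at 59.9 and 92.1 CPM at E10.5 and 32.9 and 31.5 CPM at E12.5 (-1.18 ± 0.14), and Ndufa7 (0.02) and Ndufs5 (0.18) were among the 5 not called. The count was 75 higher and 1 lower without low-Myl7 or myogenic barcodes, 67 and 1 in members with at least 1000 CPM of Myl2, and 57 and 1 at higher floors for Tnnt2 and Actc1, where 5.51% of all genes were called higher and 4.14% lower. The mt- genes are part of the rule and were not tested as a list.

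NRF1 is a transcription factor known to bind respiratory chain promoters. Its core was found in promoters of 9 of 66 respiratory chain genes (13.6%), 5 of 29 fatty acid genes (17.2%) and 0 of 62 ribosomal protein genes. It was found for 5.09% of the 10019 tested genes with a promoter entry and 2.56% of all. M-CAT cores were found for 10.6%, 24.1% and 8.06% of these genes, against 13% of tested genes. The windows of Sdhb, a subunit of complex II, and Cox6a1, a subunit of complex IV, show the core in capitals, 54 and 162 bases before the start site. In Cox6a1 a match on each strand overlaps the other.
Sdhb, chr4:140961171-140961270, + strand: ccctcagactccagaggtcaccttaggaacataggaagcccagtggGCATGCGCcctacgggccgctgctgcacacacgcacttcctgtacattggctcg
Cox6a1, chr5:115349067-115349166, - strand: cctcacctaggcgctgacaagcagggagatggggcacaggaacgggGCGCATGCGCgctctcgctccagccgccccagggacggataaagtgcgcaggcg

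Of 34 tested genes of fatty acid uptake and oxidation, 25 rose and 2 fell, with a median difference of 1.26, against 19.4% and 18.7% of all genes. In members with at least 1000 CPM of Myl2 19 were higher and none lower, and at higher floors for Tnnt2 and Actc1 15 and none. The acyl-CoA dehydrogenases Acadl, at 36.0 and 42.1 CPM at E10.5 and 182 and 184 CPM at E12.5 (2.29 ± 0.14), Acadvl (2.08) and Acadm (1.46) catalyse the first step of beta-oxidation. The trifunctional protein subunits Hadha, at 50.4 and 51.3 CPM at E10.5 and 139 and 147 CPM at E12.5 (1.54 ± 0.13), and Hadhb (1.40) carry out later ones. The fatty acid carrier Fabp3 stood at 208 and 231 CPM at E10.5 and 649 and 577 CPM at E12.5 (1.54 ± 0.12), and lipoprotein lipase, Lpl, rose by 1.25 ± 0.13. Cpt1a, which admits fatty acids to the mitochondrion, had 0 and 3 UMIs at E10.5 and 312 and 482 at E12.5. The co-activator Ppargc1a rose by 0.33 ± 0.12, and was not called without low-Myl7 or myogenic barcodes (0.26). The uptake protein Cd36, at 26.0 and 27.4 CPM at E10.5 and 24.7 and 27.6 CPM at E12.5, did not pass the test, nor did the activating enzyme Acsl1, at 16.1 and 13.3 CPM at E10.5 and 12.495 and 14.6 CPM at E12.5. Without low-Myl7 or myogenic barcodes Cd36 was called higher (0.46). The 2 that fell were the carrier Fabp5 (-0.39) and the receptor Nr1h3 (-2.24).

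Glycolysis and glucose uptake changed at the same time. Of 30 genes tested, 17 rose and 4 fell, with a median difference of 0.50, against 19.4% and 18.7% of all genes. At higher floors for Tnnt2 and Actc1 the counts were 5 higher and 6 lower, with a median of 0.15. The heart form of lactate dehydrogenase, Ldhb, was read at 89.7 and 90.7 CPM at E10.5 and 403 and 361 CPM at E12.5 (2.14 ± 0.13), while Ldha, the other form, stood at 1287 and 1352 CPM at E10.5 and 1632 and 1579 CPM at E12.5 (0.34 ± 0.11). Muscle phosphofructokinase Pfkm (1.77) and glycogen phosphorylase Pygm (2.18) rose. The glucose transporters of the early embryo fell, Slc2a3 from 57.9 and 69.5 to 11.5 and 14.7 CPM (-2.22 ± 0.14) and Slc2a1 from 282 and 292 to 179 and 201 CPM (-0.54 ± 0.11), as did hexokinase 2, Hk2 (-0.94), and Pgk1 (-1.06). Hexokinase 1, Hk1, rose by 0.89 ± 0.12. The insulin-responsive transporter Slc2a4, at 8.27 and 4.87 CPM at E10.5 and 9.40 and 10.4 CPM at E12.5, did not pass the test, but was called higher without low-Myl7 or myogenic barcodes (0.79).

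In the creatine kinase and oxygen list, 11 of 16 tested genes rose and 1 fell (median 0.55), against 19.4% and 18.7% of all genes. At higher floors for Tnnt2 and Actc1 7 were higher and 2 lower. Muscle creatine kinase, Ckm, was read at 6.61 and 3.98 CPM at E10.5 and 41.7 and 41.8 CPM at E12.5 (3.02 ± 0.22; 3.98 without low-Myl7 or myogenic barcodes) and the muscle subunit of complex IV Cox6a2 at 624 and 712 CPM at E10.5 and 1146 and 1158 CPM at E12.5 (0.84 ± 0.11). The prolyl hydroxylase Egln3, a target and brake of the hypoxia response, fell from 16.9 and 14.2 to 4.41 and 4.94 CPM (-1.68 ± 0.21), but was not called without members holding genes of other classes (-0.96). Hif1a (-0.07) and Vegfa (0.14) did not pass the test.

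Most genes of the Lin28 and oncofetal RNA-binding list fell, and the list also holds chromatin proteins such as Hmga1 and Hmga2. Lin28a and Lin28b block maturation of the let-7 microRNAs, several others are targets of let-7, and the list is known from embryonic and tumour cells. Of 11 tested, none rose and 10 fell, with a median difference of -2.10, against 19.4% and 18.7% of all genes. At higher floors for Tnnt2 and Actc1 3 were lower and none higher, with a median of -0.96. Trim71 (-1.25), Sall4 (-1.91), Arid3a (-0.59) and Igf2bp2 (-0.66) were not called there. Igf2bp1 (0.25) and Igf2bp3 (0.31) were reversed there without being called. Lin28a had 56 and 27 UMIs in the E10.5 sums and 1 and 1 in the much larger E12.5 sums, a ratio of E10.5 over E12.5 of 914 (95% counting interval 245 to 7674). Its paralog Lin28b stood at 14.1 and 9.74 CPM at E10.5 and 1.69 and 1.65 CPM at E12.5 (-2.78 ± 0.28). The ubiquitin ligase Trim71 was read at 17.4 and 14.6 CPM at E10.5 and 2.81 and 3.04 CPM at E12.5 (-2.39 ± 0.23), and the chromatin protein Hmga2, a let-7 target, at 287 and 273 CPM at E10.5 and 61.4 and 64.5 CPM at E12.5 (-2.10 ± 0.11). Sall4 (-2.36), Hmga1 (-2.72) and Arid3a (-1.19) also fell. The 3 Igf2bp genes fell by less, Igf2bp1 by 0.43, Igf2bp2 by 0.60 and Igf2bp3 by 0.48, and Igf2bp1 lost its call without E10.5 replicate 1 (-0.19). Dnmt3b did not pass the test. After thinning, Hmga2 was found in 35.8% and 36.8% of members at E10.5 and in 11.2% and 11.3% at E12.5, below the 53.4% and 49.7%, and 16.4% and 17.2%, of endothelial-like barcodes. Lin28a was found in 5.41% and 1.32% at E10.5 and in 0 of 1778 and 0 of 2412 at E12.5, with exact upper limits of 0.207% and 0.153%. In endothelial-like barcodes at E10.5 Lin28a was found in 5.18% and 4.09%, so its share in members was close to that of another class in library 1 and below it in library 2.

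Splicing regulators had 3 of 21 tested genes higher and 12 lower (median -0.32), against 19.4% and 18.7% of all genes. In members with at least 1000 CPM of Myl2 2 were higher and 5 lower, against 11.6% and 9.80% of all genes. At higher floors for Tnnt2 and Actc1 the counts were 0 and 2 (median -0.04), against 5.51% and 4.14%. The serine-arginine-rich factors Srsf2 (-0.57), Srsf3 (-0.56) and Srsf10 (-0.50) fell, and Rbm20, which controls splicing of titin, rose from 20.3 and 23.0 to 33.1 and 38.0 CPM (0.78 ± 0.16). Srsf2 (-0.23), Srsf10 (-0.21) and Rbm20 (0.59) were not called at the higher floors. Rbm24, at 166 and 161 CPM at E10.5 and 150.1 and 159 CPM at E12.5, did not pass the test. Of 84 cytosolic ribosomal protein genes tested, 47 fell and 1 rose, with a median of -0.30, where 18.7% of all genes were lower and 19.4% higher. With scaling to library size alone 69 fell and the median was -0.36, and with globin and mt- genes left out 45 fell. Rpl35 was read at 3076 and 3380.2 CPM at E10.5 and 1574 and 1984 CPM at E12.5 (-0.81 ± 0.12) and Rps2 at 6081 and 5869 CPM at E10.5 and 3812 and 3524 CPM at E12.5 (-0.65 ± 0.11). Ribosomal protein genes have near-identical copies in the genome, between which counting can split UMIs. The 1 that rose was the muscle paralog Rpl3l, with no UMI at E10.5. The count was 36 lower without low-Myl7 or myogenic barcodes, where 16.3% of all genes were lower. It was 11 lower in members with at least 1000 CPM of Myl2, against 9.80% of all genes. At higher floors for Tnnt2 and Actc1 it was 5 lower with a median of -0.10, against 4.14%. The 11 and the 5 of 84 were near those shares.

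Among 42 S phase genes 11 rose and 2 fell, with a median of 0.06 that was -0.00 with scaling to library size alone, and among 53 G2/M genes 9 rose and 10 fell (median 0.15), where 19.4% of all genes were higher and 18.7% lower, so the G2/M counts were near those shares. Without low-Myl7 or myogenic barcodes the counts were 7 and 6, and 4 and 14, where 18.9% and 16.3% of all genes were called, with scaling to library size alone 8 and 5, and 9 and 15, and at higher floors for Tnnt2 and Actc1 4 and 0, and 7 and 0, where 5.51% and 4.14% were called. The replication helicase Mcm6 rose from 28.9 and 29.7 to 54.7 and 64.4 CPM (1.08 ± 0.14), the ribonucleotide reductase subunit Rrm1 from 35.1 and 35.4 to 73.4 and 76.6 CPM (1.15 ± 0.13), and the proliferation antigen Mki67 from 37.6 and 32.3 to 74.2 and 69.8 CPM (1.10 ± 0.14). The cyclin-dependent kinase subunits Cks1b (-0.64) and Cks2 (-0.51), cyclin B1, Ccnb1 (-0.46), and the centromere protein Cenpa (-0.42) fell. For several G2/M genes the 2 E10.5 libraries stood apart, as for Cdk1, at 80.2 and 38.1 CPM at E10.5 and 84.2 and 66.9 CPM at E12.5, which did not pass the test. Without thinning, Top2a was found in 52.0% and 42.8% of members at E10.5 and 49.6% and 49.0% at E12.5, so the stages overlapped. The unthinned shares of Mki67 were 31.8% and 27.0% against 42.0% and 40.5%. After thinning, Mki67 was found in 10.1% and 5.92% of members at E10.5 and in 10.6% and 10.8% at E12.5, and Top2a in 11.5% and 11.8%, and in 20.02% and 18.0%. In endothelial-like barcodes Mki67 was found in 9.33% and 7.93% at E10.5 and in 6.74% and 7.23% at E12.5, and Top2a in 30.5% and 28.0%, and in 17.6% and 17.1%, so at E10.5 Top2a was found in a smaller share of members than of endothelial-like barcodes.

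Of 19 cell cycle regulators tested 4 rose and 6 fell (median -0.02), or 2 and 3 (median 0.50) at higher floors for Tnnt2 and Actc1. Over all genes 19.4% and 18.7% were called, and 5.51% and 4.14% at the higher floors. Cyclin D2, Ccnd2, was read at 832 and 735 CPM at E10.5 and 455 and 466 CPM at E12.5 (-0.71 ± 0.11) and its kinase Cdk4 at 592 and 533 CPM at E10.5 and 369 and 346 CPM at E12.5 (-0.60 ± 0.11). At higher Tnnt2 and Actc1 floors Ccnd2 was reversed to 0.60. Cyclin D1, Ccnd1, rose by 0.68 ± 0.13 and the inhibitor Cdkn2c by 1.5002 ± 0.36. The inhibitor Cdkn1a was called lower (-1.90), but was not called without low-Myl7 or myogenic barcodes (0.17), and Cdkn1c moved from -0.52 to 0.38, called in each case.

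Of 27 cardiac transcription factors tested, 7 rose and 9 fell (median -0.12), against 19.4% and 18.7% of all genes. At higher floors for Tnnt2 and Actc1 2 were higher and 9 lower (median -0.01), where 5.51% and 4.14% of all genes were called. Isl1, which marks the second heart field progenitors that add muscle to the poles of the tube, was read at 23.1 and 32.8 CPM at E10.5 and 3.23 and 4.05 CPM at E12.5 (-2.87 ± 0.20, edgeR adjusted p = 3.02e-11). Mef2c, an activator of muscle genes, stood at 390.2 and 423 CPM at E10.5 and 147 and 173 CPM at E12.5 (-1.29 ± 0.11; -0.69 without low-Myl7 or myogenic barcodes). Nkx2-5 (-0.43), Tbx5 (-0.55) and Gata5 (-1.30) fell, as did the inhibitors of differentiation Id1, Id2 and Id3 (-1.20, -0.92 and -0.78). Hopx, a homeodomain protein of differentiating muscle, rose from 39.7 and 35.9 to 77.5 and 84.3 CPM (1.15 ± 0.13), and Prox1 (0.92), Zfpm2 (1.13), Prdm16 (1.30) and Srf (0.64) rose too. Gata4 was called higher by 0.39 ± 0.13, and not without low-Myl7 or myogenic barcodes (0.28). Tbx20 and Hand2 did not pass the test.

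Genes of chamber and conduction patterning moved both ways, 8 of 28 higher and 11 lower (median -0.15), against 19.4% and 18.7% of all genes. At higher floors for Tnnt2 and Actc1 9 were higher and 9 lower (median 0.36), where 5.51% and 4.14% of all genes were called. The atrial regulator Nr2f2 was read at 104 and 94.7 CPM at E10.5 and 18.0 and 16.6 CPM at E12.5 (-2.47 ± 0.12) and the sinus node factor Shox2 at 85.2 and 58.4 CPM at E10.5 and 14.2 and 14.534 CPM at E12.5 (-2.27 ± 0.14). Bmp2 (-2.07), Bmp4 (-1.89), Tbx2 (-0.78), Tbx3 (-0.64) and Hey1 (-2.34) fell as well. The natriuretic peptide Nppa stood at 823 and 664 CPM at E10.5 and 2794 and 2279 CPM at E12.5 (1.83 ± 0.13), the trabecular ligand Bmp10 at 19.4 and 17.7 CPM at E10.5 and 33.4 and 40.9 CPM at E12.5 (1.06 ± 0.17), and the ventricular factors Irx4 (1.16) and Hey2 (0.87) rose too. Members with at least 1000 CPM of Myl2 were 30.4% and 40.8% at E10.5 (45 and 62 barcodes) and 85.7% and 87.0% at E12.5 (1524 and 2099 barcodes). Myl2 itself rose, so a change in the mix of members and a rise within them cannot be told apart by these shares.

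With only the members at 1000 CPM of Myl2 or more, 1492 of 12843 genes (11.6%) were higher and 1258 (9.80%) lower. Nppa then stood at 1.49, Myh7 at 1.71, Actn2 at 1.95, Nr2f2 at -2.29, Isl1 at -3.13 and Hmga2 at -2.41, each still called. Shox2 (-0.87), Irx4 (0.42), Hey2 (0.24) and Bmp10 (0.47) were not called there. Myl2 itself differed between stages, so this floor does not select the same cells at both. With only the members under 1000 CPM of Myl2, Myh7 (0.27), Myl3 (0.05), Gja1 (0.33), Pln (0.47) and Kcne1 (0.52) were not called, Nr2f2 stood at -0.50 and Isl1 at -1.12, both called, Shox2 (-0.21) was not called, and Nppa (1.90), Actn2 (1.56) and Hmga2 (-2.86) were called as well. In these members Irx4 (-2.81), Hey2 (-2.12) and Ldha (-0.71) were called lower, and Myl7 (0.64), Myl1 (0.87), Kcnj5 (0.83), Tbx5 (0.47) and Tbx3 (0.70) higher, each against its direction in all members. Of the largest changes, Gtsf1 (1.85) and Mb (1.12) rose there by less than in all members, and Wnt2 (-1.75), Dlk1 (-2.02) and Shisa2 (-1.57) fell by less, all still called. Myl2 stood at 1.09 there, a description only, since these members were chosen by its level.

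Growth factor signalling had 8 of 35 genes higher and 13 lower, with a median of 0.05 that was -0.01 with scaling to library size alone. The count higher was near the 19.4% of all genes, and 18.7% of all genes were lower. At higher floors for Tnnt2 and Actc1 2 were higher and 7 lower (median -0.01). Fgf8, a ligand of the second heart field, had 39 and 34 UMIs at E10.5 and 4 and 17 in the larger E12.5 sums, 16.1 and 15.1 CPM at E10.5 and 0.0878 and 0.296 CPM at E12.5 (-6.18 ± 0.38). The receptors Fzd7 (-2.99) and Fgfr2 (-2.17), the Notch ligand Jag1 (-1.4984) and the neuregulin receptor Erbb4 (-1.09) fell, whereas its partner Erbb2 rose by 0.97 ± 0.15. The Wnt inhibitor Sfrp1 was read at 71.5 and 74.8 CPM at E10.5 and 335 and 329 CPM at E12.5 (2.24 ± 0.12) and Vegfb, a growth factor of muscle, at 124 and 127 CPM at E10.5 and 229.9 and 255 CPM at E12.5 (1.01 ± 0.12). Of 16 imprinted growth genes 3 rose and 9 fell (median -0.44), the count higher again being near the 19.4% of all genes. Without low-Myl7 or myogenic barcodes 6 rose and 7 fell (median -0.07), where 18.9% and 16.3% of all genes were called. Nnat (-2.79), Peg10 (-3.40; -2.58 without those barcodes) and Meg3 (-2.39; -1.23 without those barcodes) fell with Dlk1, and Igf2, a growth factor, and Igf2r, its clearing receptor, rose by 0.67 ± 0.12 and 1.09 ± 0.12. Ndn moved from -0.37 to 0.39 without those barcodes, called in each case.

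Matrix and adhesion genes rose in 22 of 38 cases and fell in 8 (median 0.64). Over all genes 19.4% were higher and 18.7% lower, so the count lower was near that share. At higher floors for Tnnt2 and Actc1 12 were higher and 4 lower. The matrix protein Sparc stood at 236 and 221 CPM at E10.5 and 658 and 626 CPM at E12.5 (1.55 ± 0.11), and the basement membrane chains Lamb1 (1.87), Lama4 (2.12), Col4a1 (0.96) and Col4a2 (0.94) rose, as did the junction proteins Pkp2 (0.92), Jup (0.62) and Dsp (0.41). Elastin, Eln, went from 0.413 and 1.33 to 26.0 and 22.1 CPM, the E10.5 values resting on few UMIs. Free RNA held more of it at E12.5, 42.1 and 59.2 CPM, and in endothelial-like barcodes it differed by 7.75. The hyaluronan synthase Has2 (-2.3023) and the hyaluronan-binding versican, Vcan (-0.38), genes of the cardiac jelly, fell. Immediate early and heat shock genes rose in 19 of 28 cases and fell in 3 (median 0.66), against the same shares over all genes. Egr1 was read at 11.2 and 11.1 CPM at E10.5 and 127 and 155 CPM at E12.5 (3.72 ± 0.18), Atf3 at 6.20 and 5.75 CPM at E10.5 and 40.6 and 40.1 CPM at E12.5 (2.81 ± 0.21) and Junb at 4.96 and 6.20 CPM at E10.5 and 26.4 and 27.6 CPM at E12.5 (2.34 ± 0.22), with smaller rises of Jun (1.36) and Fos (1.24). These genes also respond to tissue handling, and their part in the comparison was not tested. They rose in endothelial-like barcodes of the same libraries as well, by 3.49 for Egr1 and 1.47 for Atf3.

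All 5 sex-linked genes differed. Xist, transcribed from the inactive X chromosome, was read at 1291 and 1349.7 CPM at E10.5 and 81.4 and 82.8 CPM at E12.5 (-3.95 ± 0.12). The Y-linked genes Kdm5d, Uty, Ddx3y and Eif2s3y had no UMI in the members of either E10.5 library and 346 and 428, 350 and 491, 1311 and 1662, and 1550 and 1932 UMIs at E12.5, at least 11.7-fold, 12.7-fold, 44.98-fold and 52.7-fold higher against a floor of 3 UMIs over both E10.5 sums. The same genes had no UMI in the endothelial-like barcodes of the E10.5 libraries. The sex of the embryos moves with stage in these libraries, and its part in any other difference was not tested.

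**Figure D3:**
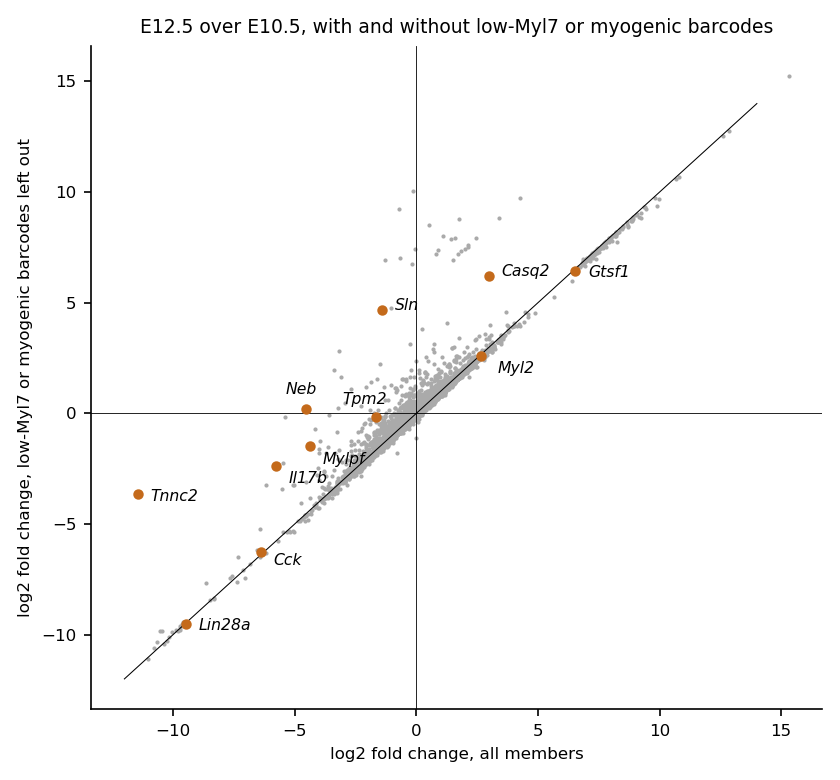
Log2 difference with all members (horizontal) against the same without low-Myl7 or myogenic barcodes (vertical), 1 point per tested gene, with the line of equality. Most points lie along the line, and Sln, Casq2, Neb, Tpm2, Tnnc2, Mylpf and Il17b are labelled above it.

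The low-Myl7 or myogenic barcodes changed a short set of genes by much. Beside the genes given above, the adhesion molecule Ncam1 moved from -0.09, not called, to 1.67, called, without them, and Cox8b, a muscle subunit of complex IV, from 1.62 to 2.60. Other metabolic and oncofetal genes moved less: Acadl was 2.43, Ldhb 2.06, Uqcrc1 1.75, Hmga2 -2.21 and Lin28b -2.49, all still called. Without members holding genes of other classes, calls given above were lost for Atp2a2 (-0.05), Cacna1c (0.26), Hcn4 (-1.20), Tagln (-0.24), Arid3a (-0.71), Rbm20 (0.56), Gata4 (0.05), Srf (0.38), Hey2 (0.35), Tbx2 (-0.78), Cdkn2c (0.57), Nr1h3 (-1.56), Ppargc1a (0.19), Ndn (0.30), Dsp (0.12) and Jup (0.29).

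To see which differences were shared by another cell class of the same libraries, the stage difference of cardiomyocytes was tested against that of endothelial-like barcodes (4881 in the 4 libraries) with the library as a block. At E10.5 these came from the whole trunk and at E12.5 from the heart, so tissue origin and stage cannot be told apart in them either. With at least 3 markers and less than 500 CPM of Tnnt2, 591 of 1254 and 536 of 1173 stayed at E10.5. At E12.5 913 of 1113 and 1103 of 1341 stayed. After thinning, Cdh5 was found in 18.7% and 19.3% at E10.5 and 28.6% and 32.7% at E12.5. Which other cells the set held at each stage was not tested. The cardiomyocyte difference was above the endothelial one for 2725 of 15175 genes (18.0%) and below it for 2330 (15.4%), 33.3% in all. In endothelial-like barcodes alone 33.2% of 14213 genes were higher at E12.5 and 34.2% lower. In the respiratory chain 64 genes were above and 4 below, with medians of 0.70 in cardiomyocytes and 0.33 in endothelial-like barcodes. Glycolysis had 23 above and 1 below (medians 0.50 and -0.61), S phase 29 and 0 (0.06 and -0.50), and G2/M 39 and 0 (0.15 and -0.52). Ldhb was higher by 2.14 in cardiomyocytes and 0.11 in endothelial-like barcodes (difference 2.06, edgeR adjusted p = 1.58e-14), and Gja1 by 2.09 against -1.16 (difference 3.28). Of 34 fatty acid genes 9 were above and 5 below (medians 1.26 and 0.70), the count below being near the share over all genes.

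The Lin28 list had medians of -2.10 and -1.80, with 6 of 11 cardiomyocyte differences above the endothelial one and 2 below. Hmga2 had -2.10 and -1.80, a difference that was called (-0.26, edgeR adjusted p = 9.16e-03), and Lin28b -2.78 and -3.11, not called. Trim71 and Sall4 fell more in endothelial-like barcodes (-6.99 and -6.51) than in cardiomyocytes (-2.39 and -2.36), and the difference was called for both. Ribosomal protein genes went the other way, with 59 cardiomyocyte differences below and 3 above (medians -0.30 and -0.00). Sarcomere genes could not be compared in this way. Thick filament genes had 10 below and 0 above, thin filament genes 16 and 1, and Z-disc genes 22 and 1. Heart free RNA carried these transcripts, and Myl2 differed by 5.97 in endothelial-like barcodes. It carried other cardiomyocyte transcripts too, such as Pln at 556 and 611 CPM at E12.5. In endothelial-like barcodes Pln differed by 4.52, Trdn by 3.76, Fabp3 by 3.87 and Ckm by 3.89. The counts of other lists that hold such genes carry the same limit. Whether free RNA, barcodes holding more than 1 cell or other cells of the set gave these values was not tested. For the other lists, counts above and below stand against 18.0% and 15.4% of all genes. They were 4 and 13 of 27 calcium handling genes, 8 and 2 of 24 channels, 4 and 17 of 27 transcription factors and 11 and 12 of 28 patterning genes. Splicing regulators had 5 and 5 of 21 and cycle regulators 5 and 4 of 19, both near those shares. The counts were 5 and 6 of 16 creatine kinase and oxygen genes, 2 and 14 of 16 imprinted genes and 9 and 14 of 35 growth factor genes. Matrix genes had 3 and 20 of 38, and immediate early and heat shock genes 8 and 11 of 28.

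**Figure D4:**
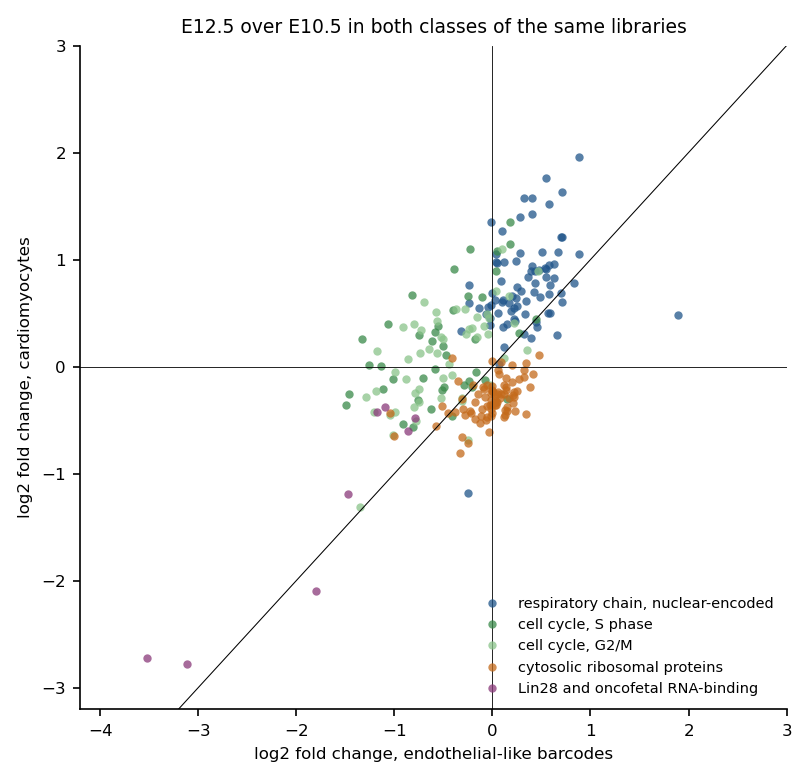
Stage difference (log2, E12.5 over E10.5) in endothelial-like barcodes (horizontal) against that in cardiomyocytes (vertical) for genes of 5 lists, 1 point per gene, with the line of equality. Respiratory chain and cell cycle points lie mostly above the line and ribosomal protein points mostly below it, and 5 of 271 points (Cox6a2, Cox8b, Lin28a, Sall4, Trim71) lie outside the axes.

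The same rule was applied to the other stages to place the interval (133 members at E8.5, 5253 at E14.5, 6917 at E16.5 and 7144 at P3, postnatal day 3). These levels are a description, from 1 of the 2 E8.5 libraries, the other being not analysed here, and from a single P3 matrix. For several genes the step lay mainly between E10.5 and E12.5. The source also changed there, from embryos at E8.5 and E10.5 to hearts from E12.5 on, so stage and source cannot be told apart. Myl2 stood at 2256 CPM at E8.5 and 13230 and 13646 CPM at E14.5, close to the E12.5 levels, and Actn2 at 55.2 CPM at E8.5 and 530.1 and 574 CPM at E14.5. Others went on changing. Mb was read at 747 and 745 CPM at E14.5 and 3685 CPM at P3, Ckm at 579 and 614 CPM and then 2388 CPM, and Hmga2 went down to 23.1 and 23.5 CPM at E14.5 and 0.232 CPM at P3. Cited1 peaked at E12.5, with 56.1 CPM at E8.5 and 253 and 261 CPM at E14.5, as did Nppa among the embryonic stages, with 492 CPM at E8.5 and 784 and 814 CPM at E14.5. Myh6 was lower at E14.5, at 384 and 391 CPM, and reached 5529 CPM at P3, where Myh7 stood at 1876 CPM. At E8.5 Myl7 stood at 18049 CPM and the rule genes Tnnt2 and Actc1 at 2792 and 10317 CPM, each above both E10.5 libraries.

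**Figure D5:**
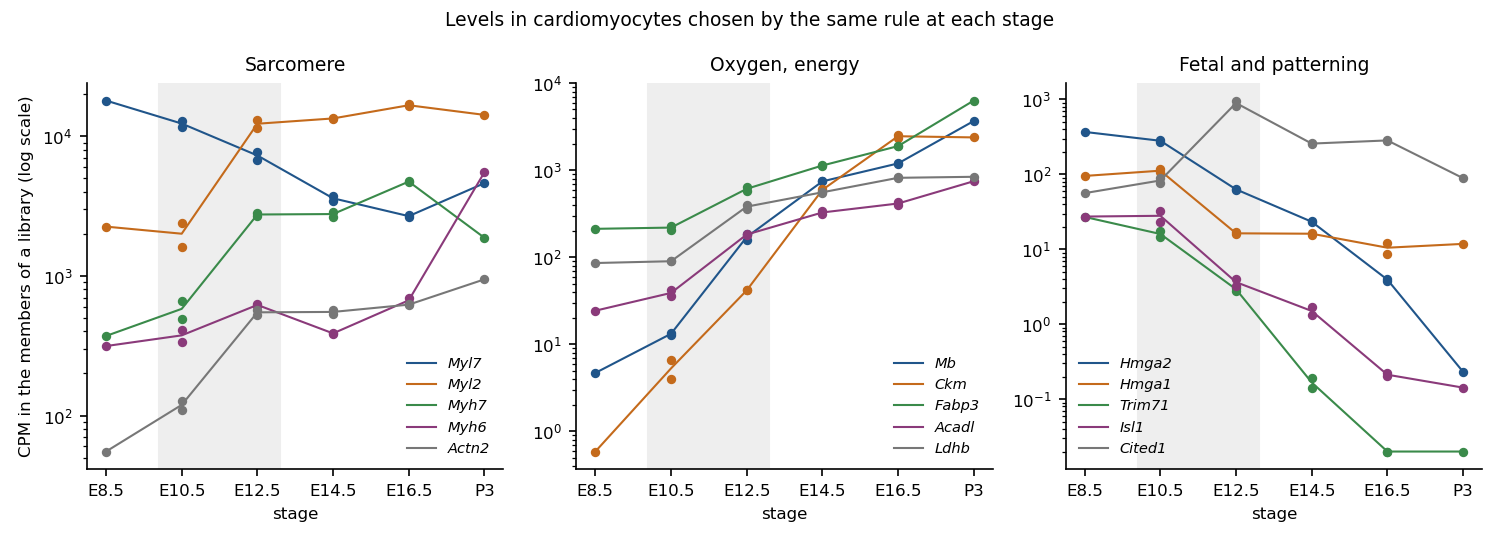
CPM of the summed members on a log axis by stage for 15 genes, 1 point per library and lines through the stage means, with the interval E10.5 to E12.5 shaded and values of 0 drawn at the axis floor. Across the shaded interval Myl2, Myh7, Actn2, Mb, Ckm, Acadl and Cited1 lie higher at its end, and Myl7, Hmga2, Hmga1, Trim71 and Isl1 lower.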

How the data were processed

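Gene by barcode matrices of UMI counts were deposited by the authors, made with Cell Ranger 2.1.1 against mm10 per the submitters' processing notes, which also name Seurat 3.1.1. The matrix headers give another Cell Ranger release. Each of the 4 matrices compared lists 737280 barcodes and 27998 genes, so no cell filter had been applied to them. The P3 matrix lists 10964 barcodes, all with UMIs, and had been filtered. The 4 libraries held 259041468 and 254118869 UMIs at E10.5 and 109816559 and 136646866 at E12.5. The members and gene lists were chosen with earlier results of these data known.

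UMIs of the members were summed per library, giving 2419014 and 2259056 UMIs at E10.5 and 45537251 and 57518687 at E12.5, the E10.5 sums being the smaller. The 4 sums were fitted in R 4.3.3 with edgeR 4.0.16 (filterByExpr, TMM scaling, quasi-likelihood test, Benjamini-Hochberg adjustment), with no covariate. DESeq2 1.42.0 was an alternative. Endothelial-like barcodes passed the UMI, gene and mt- floors, held at least 2 of the endothelial markers and had less than 1000 CPM of Tnnt2. The difference from them was the interaction term of a fit with the library as a block. Standard errors are the log2 difference divided by the square root of F. Intervals of shares are exact Clopper-Pearson intervals at 95% and, like the floor of 3 UMIs, cover counting error only. No doublet caller was run. The scripts were tested on simulated counts.

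Named genes were the 12 largest rises and 12 largest falls that passed the test with a mean of 50 CPM or more in the higher stage, no overlap between stages and a level at least 0.5 times that of free RNA, and the 4 genes of lowest adjusted p in each list. The rule genes, mt- genes and globins were left out of the first set. Other genes were named after their values were seen. The fits without low-Myl7 or myogenic barcodes, with and without lower Tnnt2 and Actc1 floors, were added after seeing the data. Promoter sequence came from RefSeq (GRCm38.p6). The other stages were used for levels only. Some genes of the lists are counted but not reported here by name.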

Additional observations from a re-analysis of the deposited data

Results flagged for a closer look

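For 24 genes the stage difference of cardiomyocytes differed from that of endothelial-like barcodes by the interaction test of edgeR at an adjusted p below 0.05. They were among the genes named for the size of their cardiomyocyte difference or in the Lin28 list, so their number says nothing about other genes. Values are the cardiomyocyte minus the endothelial-like log2 difference. The cardiomyocyte value was above the endothelial one for Trim71 (4.63), Sall4 (4.19), Cited1 (3.16), Mlf1 (2.50), Clu (1.97), Snap91 (1.88), Prtg (1.70), Mcam (1.65), Hmga1 (0.83), Igf2bp1 (0.78), Igf2bp3 (0.35) and Igf2bp2 (0.29). It was below it for Il17b (-3.54), Lin28a (-3.41), Myl2 (-3.23), Eef1a2 (-3.13), Dlk1 (-2.94), Cck (-2.92), Wnt2 (-2.87), Shisa2 (-2.69), Mylpf (-2.36), Tppp3 (-2.30), Xist (-1.03) and Hmga2 (-0.26). For Myl2 and Eef1a2 the level in endothelial-like barcodes moved with the heart free RNA. Eef1a2 had 0 and 0.313 CPM in free RNA at E10.5 and 55.2 and 57.8 CPM at E12.5. Its endothelial-like difference was 6.02, and whether free RNA gave this was not tested. The cardiomyocyte falls of Il17b (-5.78 to -2.38), Mylpf, Tppp3 and Shisa2 shrank without low-Myl7 or myogenic barcodes, and this comparison was not run without them. Endothelial-like barcodes came from the trunk at E10.5 and from the heart at E12.5, and the part of this in the differences was not tested. With 2 libraries per stage no library could be tested as an outlier.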

How the results depend on the processing

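Counts of genes higher and lower at E12.5, 2596 and 2494 with all members, stayed within 1.5 times under other scalings (2565 and 2527 with DESeq2's size factors in edgeR, 2390 and 2865 with library size only), the DESeq2 test (1749 and 1918), no low-count filter (3011 and 2336) and free RNA subtracted (2470 and 2150). They were smaller with at least 20 CPM in 2 sums (1500 and 1428), with Tnnt2 of 3000 CPM and Actc1 of 1500 CPM or more (667 and 501, from 15, 26, 1049 and 1266 members), with members thinned to 2000 UMIs (521 and 498), without members holding genes of other classes (1574 and 1311) and with Myl2 of 1000 CPM or more (1492 and 1258). These fits tested fewer genes, members or UMIs.

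Leaving out 1 library gave 1928 to 2081 genes higher and 1693 to 1990 lower. The lone library of a stage was then assumed to vary like the other stage. For the difference from endothelial-like barcodes, these fits gave 1854 to 3003 genes above and 1461 to 2116 below. The count below was 1512 without E10.5 replicate 2 and 1461 without E12.5 replicate 2. Other settings gave 3759 above and 1779 below with no filter, and 2962 and 1826 with at least 3 endothelial genes and less than 500 CPM of Tnnt2.

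Among genes named by the rule, 14 values were reversed, and of these Cacna2d2 and, at the higher floors, Ccnd2 passed the threshold. In members with less than 1000 CPM of Myl2 these were Cacna2d2 (0.76), Ccnd1 (-0.050) and Ccnd2 (0.30), and at the higher floors Ccnd2 (0.60), Cks1b (0.0041), Igf2bp1 (0.25) and Igf2bp3 (0.31). Without members holding genes of other classes they were Cdkn1a (0.68) and Tpm2 (0.10), without low-Myl7 or myogenic barcodes Cdkn1a (0.17) and Neb (0.20), with lower floors as well Cdkn1a (0.24) and Neb (0.23), and with free RNA subtracted Dnmt3b (0.10). The cause of each was not tested. Of the other values, 2529 kept direction and side of the threshold and 54 lost their call.

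Library numbers only name the libraries: deviations of same-numbered libraries had a correlation of 0.0133 across 13364 genes, which are not independent replicates. With the replicate number as a block, 2621 genes were higher and 2474 lower. The 2 E10.5 sums held the fewest UMIs.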
